A study of Rattus norvegicus with 4 samples.

Results

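The pro-inflammatory cytokines and NF-kB targets described here are 10 genes, Tnf, Il1a, Il1b, Il6, Il18, Nos2, Ptgs2, Nfkbia, Tnfaip3 and Icam1, measured in rat pancreatic islets after growth restriction before birth. The members were chosen by name, as every probe of the array whose gene name is 1 of the 10. This gave 10 probes in 46 spots, of 30367 probes in 42877 spots in all. A probe was found for 9 of the 10 genes: Il1a has a pair of them, and no probe is named Tnfaip3. The filter on dim probes left 8 members among 20035 tested genes.

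Islets were isolated at postnatal day 14 from offspring of Sprague Dawley dams. In the IUGR group (intrauterine growth restriction), both uterine arteries of the dam had been tied at embryonic day 18. Control dams had a sham operation at that age. Each group has 4 samples, labelled as biological replicates, and each of 4 two-colour arrays held 1 IUGR and 1 control sample. IUGR was in Cy5 on arrays 1 and 2 and in Cy3 on arrays 3 and 4. By the labels' numbers, array 1 paired IUGR replicate 2 with control replicate 1, array 2 paired IUGR replicate 1 with control replicate 2, array 3 paired IUGR replicate 4 with control replicate 3, and array 4 paired IUGR replicate 3 with control replicate 4. The labels say nothing of pup sex, litter or the number of animals in a sample.

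TNF and the IL-1 cytokines are secreted proteins whose receptors signal through adaptors and kinases to the IkB kinase complex. That complex marks the inhibitor IkB-alpha, the product of Nfkbia, for destruction, and NF-kB then enters the nucleus and switches on its targets. Nfkbia and Tnfaip3 are themselves targets that shut the signal off again. In islets, IL-1 beta together with TNF and interferon gamma is a widely used model of cytokine damage to beta cells, in which Nos2 is a well-known induced gene. The cytokines can come from resident macrophages as well as from endocrine cells.

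The 60-base probes are the sequences that the arrays read, and those of 3 members are shown: Il18, the cytokine whose samples separated by group; Nfkbia, the inhibitor with 1 array apart from the rest; and Il6, whose probe does not lie in 1 continuous stretch of the genome. Coordinates are those of the scanner files, on assembly rn4. The Il18 probe is at chr8:53943005-53943064 on the plus strand, and the Nfkbia probe is at chr6:75730438-75730497 on the minus strand. The Il6 probe is at chr4:457279-458563 on the minus strand, where its 60 bases span 1285 bases. Exon and UTR annotation of rn4 was not used here.
Il18 probe: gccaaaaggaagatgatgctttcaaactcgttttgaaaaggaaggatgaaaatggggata
Nfkbia probe: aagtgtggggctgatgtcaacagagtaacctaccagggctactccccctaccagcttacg
Il6 probe: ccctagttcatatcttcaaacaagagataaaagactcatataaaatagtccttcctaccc

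Promoters were read from RefSeq on assembly GRCr8, as the 250 bases before and 50 bases after each gene's start, and 9 of the 10 members matched. The kB consensus decamer, the DNA element that NF-kB dimers bind, was searched on both strands, with no other motif searched. It was found in 3 of the 9 member promoters (33.3%), those of Il6, Nfkbia and Tnfaip3, and in 2515 of all 33469 promoters of that length (7.51%). The members were chosen as cytokines and NF-kB targets, so a higher share among them is no finding about this set. A match is a description of the letters and not a shown binding site. The windows of 60 bases around the matches of the 2 genes that have a measured value are given, with the match in capitals. The Il6 window is chr4:5894609-5894668 on GRCr8, minus strand, with the match at -68 to -59 from the start. The Nfkbia window is chr6:78597073-78597132, minus strand, with the match at -31 to -22 and read on the opposite strand. The Tnfaip3 promoter held 4 matches, 2 of them the same bases read on either strand.
Il6 promoter: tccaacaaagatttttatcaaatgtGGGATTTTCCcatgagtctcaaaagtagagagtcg
Nfkbia promoter: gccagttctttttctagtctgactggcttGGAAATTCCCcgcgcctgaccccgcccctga

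The arrays differ in ways that touch every member. As a log2 ratio of median raw signals, IUGR over control, array 1 stood at 1.68 and arrays 2 to 4 at -2.42 to -1.55, so that the IUGR channel was the brighter one on array 1 alone. The well-above-background flag covered 61.8 to 77.2% of probes per channel, and 0 spots were saturated. Across genes (not independent replicates), array 1 gave r from -0.30 to 0.13 with the other arrays, and arrays 2 to 4 gave r from 0.37 to 0.63 among themselves. All 4 arrays lie on 1 slide with 1 scan time, so there is no slide or scan batch to compare. Of the beta cell markers, 12 of 12 with a probe passed the filter. Acinar markers passed as well, 11 of 11, and so did 12 of 12 T and NK cell and 19 of 19 macrophage markers. Since 22966 of all 30367 probes were tested, passing the filter cannot check the tissue label. All 11 acinar markers had a mean ratio above 0 (median 0.41, 1 higher at an unadjusted limma p under 0.05), with a list mean of 1.81 on array 3 and of -0.19 to 0.40 on the others. Of the 12 beta cell markers, 11 had a mean ratio above 0 (median 0.31, 4 higher at that p). Of all tested genes, 52.9% had a mean ratio above 0 and 7.12% were higher at that p. The insulin genes changed sign with dye orientation: Ins2 had 1.26, 1.72, -1.03 and -0.79 on arrays 1 to 4, and Ins1 had the same signs. The part of acinar and beta cell content in the member ratios was not tested.

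Which of these genes differ between IUGR and control islets was asked with limma, fitted over all genes with a dye term. No member was called: adjusted p was 0.339 to 0.958 over the 8 tested members, against a threshold of 0.05. In the whole fit, 0 of 20035 genes were called (0%), and 0 of 22966 probes (0%) when every probe was fitted. Without adjustment, 2737 genes (13.7%) had p under 0.05, 1426 higher in IUGR (7.12%) and 1311 lower (6.54%). Among the members these were 2 of 8, Tnf above and Il18 below control. The count of 2737 rests on single arrays and on the background step: it was 6212 without array 1, 935 without array 2, 463 without array 3, and 1481 with outlying local backgrounds kept as measured. Calls after adjustment were 15 genes with median centring in place of loess and 7 with channel brightness as a covariate, no member among them. Mean log2 ratios were above 0 for 2 of the 8 tested members and for 52.9% of all tested genes. The members' median was -0.11 and that of all tested genes 0.01; with median centring in place of loess the members' median was 0.10, and without array 2 it was -0.03. Nothing is read from this count and median, since 3 of the 6 members below 0 (Il1a, Il6 and Nos2) passed the filter through control channels. Of the 5 members well above background in all channels, Tnf and Il1b were above 0 and Il18, Nfkbia and Icam1 below. A ratio of 1 sign on all 4 arrays was found for 2 members, against 20.7% of genes. Of these genes, 11% were above 0 throughout, as Tnf was, and 9.68% were below 0 throughout, as Il18 was.

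**Figure D1:**
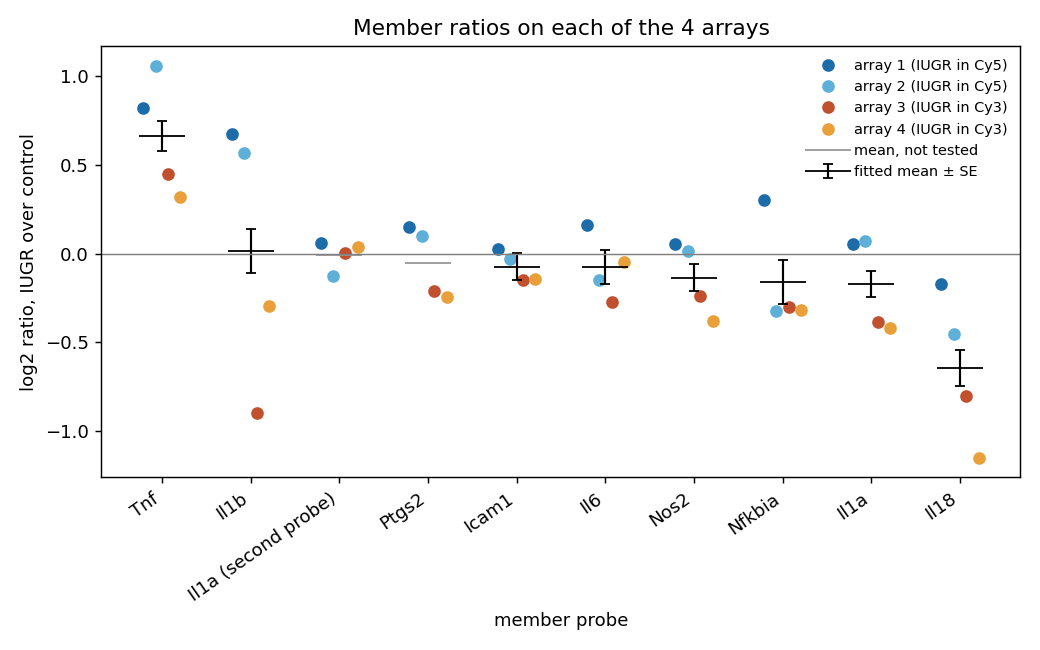
Log2 ratios of IUGR over control (vertical axis) for the 10 member probes (horizontal axis), 1 point per array coloured by array, with the fitted mean and its standard error in black where the probe was tested and the plain mean in grey where it was not. Tnf lies above 0 on all 4 arrays and Il18 below 0 on all 4, while Il1b is above 0 on arrays 1 and 2 and below 0 on arrays 3 and 4.

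Tnf encodes tumour necrosis factor, a cytokine made mainly by macrophages and a strong activator of NF-kB. Its probe (chr20:3663558-3663617 on rn4, plus strand) was well above background in all 8 channels. Log2 ratios of IUGR over control were 0.82, 1.06, 0.45 and 0.32 on arrays 1 to 4. The normalized ratio was thus above 0 on every array and in both dye orientations, with means of 0.94 where IUGR was in Cy5 and 0.38 where it was in Cy3. Before normalization the IUGR channel was the brighter one for Tnf on array 1 alone (1040 against 159.7 intensity units) and the dimmer one on arrays 2 to 4, in the order of the median raw signals. The fitted ratio was 0.66 ± 0.09 (SE), a fold of 1.58. Its limma adjusted p over all genes was 0.339 (unadjusted p = 7.24e-04, rank 24 of the tested genes).

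The levels of Tnf by sample overlapped between the groups. Normalized log2 levels in IUGR samples were 9.61, 8.78, 8.39 and 8.13 on arrays 1 to 4, a mean of 8.73 ± 0.65 (SD, n = 4). Control samples had 8.79, 7.72, 7.95 and 7.81, a mean of 8.07 ± 0.49 (SD, n = 4). Both samples of array 1 were the highest of their group, and the highest control sample was not below 3 of the 4 IUGR samples. The SD of the 4 array ratios was 0.34, larger than the fitted SE, which leaves out the difference between dye orientations. A sign-flip test over 4 arrays cannot reach p under 0.05: the smallest exact two-sided p that it allows is 0.125.

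Macrophage markers are given beside Tnf, since it is a macrophage product. Of the 19 markers with a probe, all passed the filter and 12 had a mean ratio above 0. At an unadjusted limma p under 0.05, 11 were higher and 3 lower in IUGR, against 7.12% and 6.54% of all genes, and 0 were called after adjustment. Their median log2 ratio was 0.30, with list means of 0.37, 0.28, -0.05 and -0.05 on arrays 1 to 4. The list mean was thus above 0 only where IUGR was in Cy5, but single markers differed. Trem2, Clec10a, Cd163, Fcgr1a, Csf1r, C1qa, C1qb, C1qc, Adgre1 and Itgam were above 0 on all 4 arrays, as Tnf was. So were 11% of all tested genes. The 3 markers lower at that p were Siglec1, Marco and Lyz2, with Siglec1 at -2.07 and -2.04 on arrays 3 and 4. All these markers were named after their values were seen. Summed over the list, normalized intensity was 30580 to 57840 in IUGR samples and 29670 to 50160 in control samples, ranges that overlap. The part of macrophage content in the Tnf ratio was not tested. In these bulk samples, fewer cells of a type and less RNA per cell cannot be told apart.

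By likeness over the 8 channel values, the genes most like Tnf among 15131 named tested genes were Vangl2 (r = 0.99), Ltc4s (r = 0.98) and Cfd (r = 0.97). The channels share arrays in pairs, and these r values describe the pattern only. Vangl2 encodes a planar cell polarity protein, Ltc4s the leukotriene C4 synthase and Cfd complement factor D. Their own log2 ratios of IUGR over control were 0.11 ± 0.08, 0.41 ± 0.08 and 0.74 ± 0.14 (SE), with limma adjusted p of 0.423, 0.339 and 0.339. None of the 3 was called.

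Il18 encodes interleukin 18, a cytokine of the IL-1 family that is stored as a precursor and cut by caspase-1. Its probe, the first of the printed sequences, was well above background in all 8 channels. Log2 ratios were -0.17, -0.45, -0.80 and -1.15 on arrays 1 to 4. All were below 0, with means of -0.31 where IUGR was in Cy5 and -0.98 where it was in Cy3. The fitted ratio was -0.65 ± 0.10 (SE), a fold of 0.639. Its limma adjusted p over all genes was 0.339 (unadjusted p = 0.00185). The SD of the array ratios was 0.42.

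Il18 was the member whose samples separated by group. Normalized log2 levels in IUGR samples were 8.32, 8.09, 8.14 and 8.26 on arrays 1 to 4, a mean of 8.20 ± 0.11 (SD, n = 4). Control samples had 8.50, 8.54, 8.94 and 9.41, a mean of 8.85 ± 0.43 (SD, n = 4). The lowest control sample, at 8.50, was thus above the highest IUGR sample, at 8.32, and the spread lay mostly among the controls. Groups without overlap were found for 1 of the 8 tested members and for 602 of all tested genes (3%). The size of the Il18 ratio depends on the background step: with outlying local backgrounds kept as measured it was -0.48, with a limma adjusted p of 0.544 (unadjusted p = 0.0497).

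**Figure D2:**
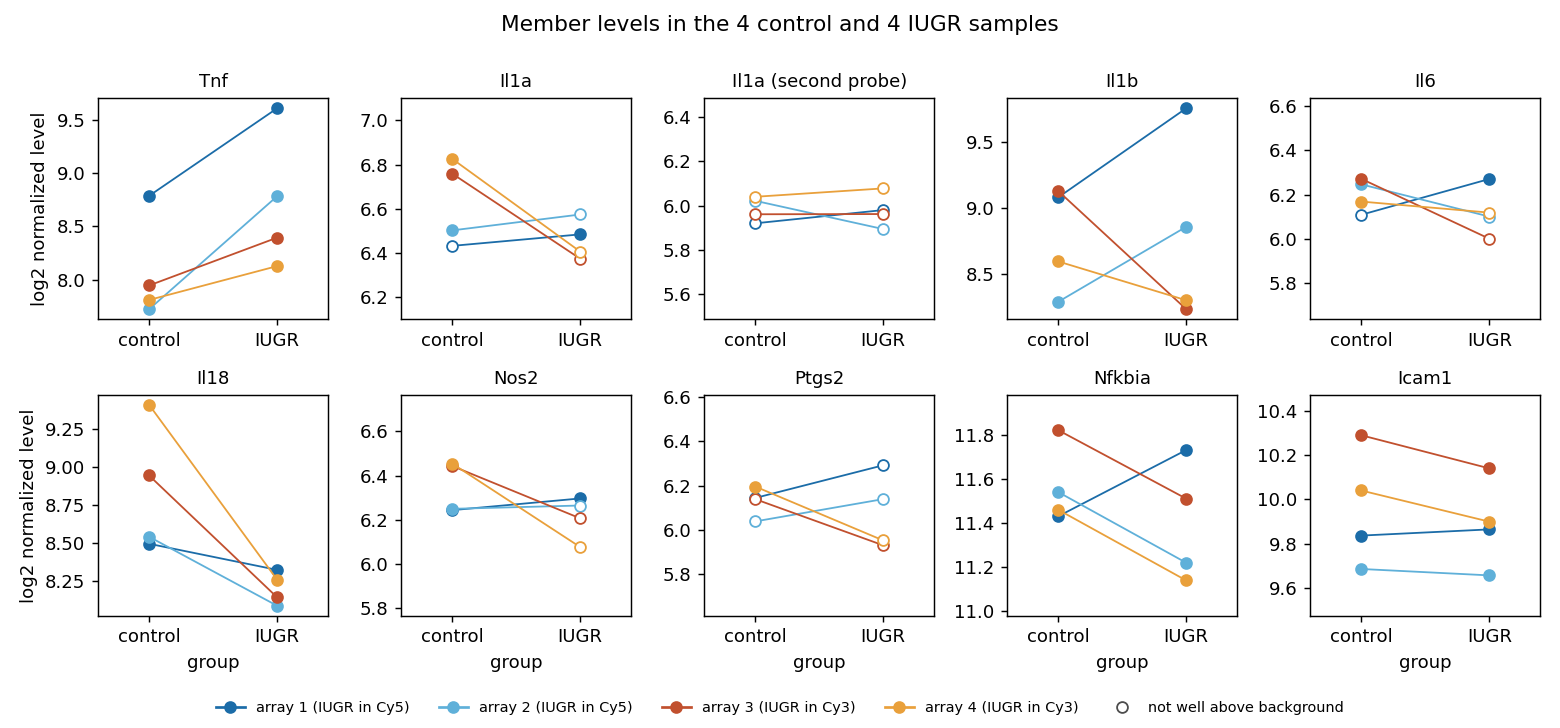
Normalized log2 levels (vertical axis, a separate range for each panel, each at least 1 unit tall) of the 10 member probes in the 4 control and the 4 IUGR samples, with lines joining the 2 samples of an array and open points for channels not well above background. Il18 is the panel in which all 4 control points lie above all 4 IUGR points, and the open points of Il1a, Il6, Nos2 and Ptgs2 mark dim signals.

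Lymphocyte, duct and handling markers, whose list medians were below 0, are given beside Il18. The alpha, delta and PP cell list was below 0 too (median -0.16). Medians were above 0 for the macrophage (0.30), granulocyte and mast cell (0.18) and endothelial (0.17) lists. The same held for the fibroblast and stellate (0.02), beta cell (0.31) and acinar (0.41) lists. Of all tested genes, 52.9% were above 0 and 6.54% were lower at an unadjusted limma p under 0.05. Of 12 tested T and NK cell markers, 11 had a mean ratio below 0 and 8 were lower at an unadjusted limma p under 0.05. Their summed normalized intensity was 1537 to 1857 in IUGR and 1815 to 6972 in control samples. Of 6 tested B cell markers, 5 were below 0 and 4 were lower at that p, with sums of 1152 to 1705 in IUGR and 1049 to 2931 in control samples. Of 10 tested duct cell markers, 9 were below 0 and 4 were lower at that p, with list means of -0.13, -0.63, -0.35 and -0.28 on arrays 1 to 4 and sums of 9360 to 11310 in IUGR and 9935 to 15280 in control samples. Of 12 tested genes of a handling list (immediate early and heat shock), all were below 0 and 7 were lower at that p. Their sums were 38210 to 84630 in IUGR and 56500 to 96870 in control samples. List means on arrays 1 to 4 were 0.06, -0.30, -1.24 and -0.58 for T and NK cells and 0.07, -0.11, -0.94 and -0.62 for B cells. For the handling list they were -0.08, -0.57, -0.79 and -0.72. Array 1 was nearest 0 in each of these lists and for Il18. It also had the smallest spread over all tested genes, an SD of 0.24 against 0.47, 0.50 and 0.29 on arrays 2 to 4. The lowest array was array 3 for the T and NK, B cell and handling lists, array 2 for the duct list and array 4 for Il18. The filter can admit dim genes through the control channels, which were the brighter ones on arrays 2 to 4. How many genes of these lists passed in that way was not counted, and no direction is read from their counts. No gene of these lists was called after adjustment, and their part in the Il18 ratio was not tested.

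The genes most like Il18 over the 8 channels were Rdh10 (r = 0.95), a retinol dehydrogenase, Gpat2 (r = 0.94), a glycerol-3-phosphate acyltransferase, and Cbln2 (r = 0.93), a secreted synapse organizer. Their log2 ratios were -0.12 ± 0.08, -0.28 ± 0.09 and -0.37 ± 0.09 (SE), with limma adjusted p of 0.402, 0.339 and 0.339. Il1a and Nos2, not well above background in 4 of 8 channels each, are left out of the comparison among members. Tnf levels went with Il1b (r = 0.74) and opposite to Il18 (r = -0.54). These values rest on 8 channels in 4 shared hybridisations and are descriptions.

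Il1b encodes interleukin 1 beta, which in islets is known for impairing insulin secretion. Its probe (chr3:116964465-116964524 on rn4, minus strand) was well above background in all channels and printed in 10 spots. Log2 ratios were 0.68, 0.57, -0.90 and -0.29 on arrays 1 to 4, and they averaged 0.01 ± 0.12 (SE), limma adjusted p = 0.958. The ratio was above 0 on both arrays with IUGR in Cy5 and below 0 on both with IUGR in Cy3, at means of 0.62 and -0.60. Within an array the spots agreed closely, with SDs of 0.04 to 0.07 and no spot of the other sign. Spread between arrays was far larger, with an SD of 0.75, the widest of the members. Different samples lie on each array, so the dye and the samples cannot be told apart here.

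Il1b levels in IUGR samples were 9.76, 8.86, 8.23 and 8.30 on arrays 1 to 4, and 9.08, 8.29, 9.13 and 8.59 in control samples. The IUGR sample of array 1, replicate 2, was the highest of the 8, and the groups overlapped. That sample also had the highest Tnf level. Opposite signs in the 2 dye orientations were found for 16.2% of all tested genes. Il1a and Nos2 had them too, but both were dim in 4 of 8 channels and nothing is read from their count.

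**Figure D3:**
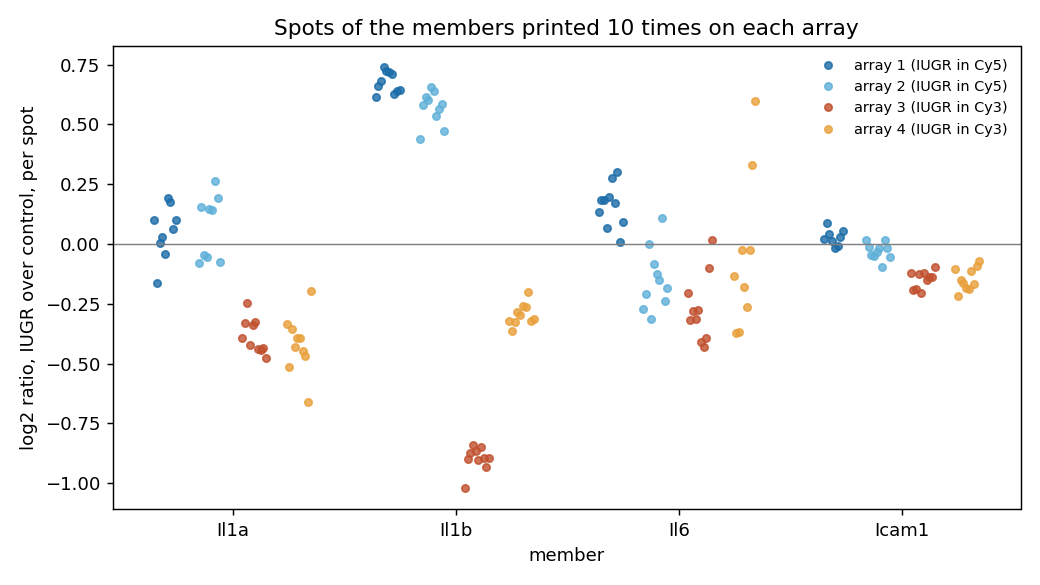
Log2 ratios of IUGR over control (vertical axis) of the single spots of the 4 members printed 10 times per array (horizontal axis), coloured by array; spots marked as feature outliers are left out. The 10 Il1b spots of an array lie close together while arrays differ, and Il6 spots on array 4 spread from -0.37 to 0.60.

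Il1a encodes interleukin 1 alpha, which acts on the receptor that Il1b uses. The brighter of its probes (chr3:116913748-116913807, minus strand, 10 spots) gave 0.05, 0.07, -0.39 and -0.42 as log2 ratios on the 4 arrays. The fitted ratio was -0.17 ± 0.07 (SE), limma adjusted p = 0.339. It was well above background in 1 of the 4 IUGR channels and in 3 of the 4 control channels. Its second probe (chr3:116914826-116914885) was not well above background in any channel and was not tested. Ratios of that probe were 0.06, -0.13, 0.00 and 0.04.

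Il6 encodes interleukin 6, a cytokine that many cell types release when NF-kB is active. Log2 ratios were 0.16, -0.15, -0.27 and -0.05 on arrays 1 to 4, averaging -0.08 ± 0.10 (SE), limma adjusted p = 0.659. Its 10 spots scattered widely on array 4, with an SD of 0.32. Log2 levels were 6.12 ± 0.11 in IUGR and 6.20 ± 0.07 in control samples (SD, n = 4 each), and they overlapped. Like Il1a, it was well above background in 1 IUGR and 3 control channels.

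Nos2 and Ptgs2 encode the effector enzymes of the set, the inducible nitric oxide synthase and the inducible cyclooxygenase. Nos2 (chr10:65072394-65072453, plus strand) gave 0.05, 0.02, -0.24 and -0.38 as log2 ratios, averaging -0.14 ± 0.08 (SE), limma adjusted p = 0.374. Its levels were 6.08 to 6.30 in IUGR and 6.24 to 6.46 in control samples, which overlap. Ptgs2 (chr13:64432919-64432978, plus strand) was well above background in 1 control channel and 0 IUGR channels, and it was not tested. Its ratios were 0.15, 0.10, -0.21 and -0.24. A bound on the fold came out under 1, so no fold is given for Ptgs2.

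Detection of the dim members followed the brighter channel of each array. For Il1a, Il6 and Nos2, the IUGR channel alone was well above background on array 1 and the control channel alone on arrays 2, 3 and 4. This is the order of the median raw signals given above. These 3 genes passed the filter through their control channels, so their ratios below 0 are no support for a difference. Signs of 3 of these ratios depend on normalization: with median centring in place of loess, Il1a was at 0.29, Il6 at 0.61 and Nos2 at 0.47.

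Nfkbia encodes IkB-alpha, the inhibitor that holds NF-kB in the cytoplasm, and is commonly read as a target of the pathway. Its probe was well above background in all 8 channels. Log2 ratios were 0.30 on array 1 and -0.32, -0.30 and -0.32 on arrays 2 to 4. The 3 arrays with the dimmer IUGR channel thus lie close together, and array 1 lies on the other side of 0. The fitted ratio was -0.16 ± 0.13 (SE), limma adjusted p = 0.484. Without array 1 it was -0.32, with a limma adjusted p of 0.119, and without array 2 it was -0.0037. With channel brightness as a covariate, which mainly sets array 1 apart from the others, the ratio was 0.012. The cause of the difference between arrays was not tested.

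Nfkbia levels were 11.73, 11.22, 11.51 and 11.14 in IUGR samples and 11.43, 11.54, 11.82 and 11.46 in control samples. The groups overlapped, at means of 11.40 ± 0.27 and 11.56 ± 0.18 (SD, n = 4 each). The kB match printed for its promoter says nothing of these levels. Tnfaip3, which encodes the deubiquitinase A20, has no value here.

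Icam1 encodes an adhesion molecule that endothelial cells display to leukocytes, and NF-kB raises it in inflammation. Its probe (chr8:20051730-20051789, plus strand) was well above background in all channels, in 8 to 10 usable spots per array. Log2 ratios were 0.03, -0.03, -0.15 and -0.14 on arrays 1 to 4, and the fitted ratio was -0.07 ± 0.07 (SE), limma adjusted p = 0.581. Its 95% interval, -0.27 to 0.12, includes 0. Levels were 9.86, 9.66, 10.14 and 9.90 in IUGR and 9.84, 9.69, 10.29 and 10.04 in control samples. Icam1 thus varied more between arrays than between the samples sharing an array.

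By array, 7, 4, 1 and 1 of the 8 tested members had a ratio above 0 on arrays 1 to 4. Their median ratios were 0.11, -0.01, -0.29 and -0.31, where the median over all tested genes was between -0.01 and 0.02 on every array. These counts and medians include the 3 dim members and are a description. The set had no common direction over the arrays, and Tnf and Il18 differed in direction.

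The rest of the pathway was read from 7 lists by role, 109 symbols without the members, of which 98 had a probe and 89 were tested. Of the 89, 30 had a mean ratio above 0 and 59 below, with a median of -0.08. At an unadjusted limma p under 0.05, 6 were higher and 19 lower in IUGR, against 7.12% and 6.54% of all tested genes, and 0 were called after adjustment. Dim genes can pass the filter through the control channels, the brighter ones on arrays 2 to 4. How many of the 89 did so was not counted, and no direction is read from these counts. The lists were drawn up with earlier results of these data known. Values below are log2 ratios with the fitted SE.

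Among 14 receptors and antagonists, 1 was higher and 1 lower at that p. Tnfrsf1a, the main TNF receptor, had 0.36 ± 0.12 and Il1r1, the signalling IL-1 receptor, 0.86 ± 0.39, each below 0 on array 1 and above 0 on the others. Il1rn, the secreted IL-1 receptor antagonist, had -0.56 ± 0.14 and was below 0 on all 4 arrays. Cd40, a receptor of antigen-presenting cells, had -0.15 ± 0.09. Limma adjusted p was 0.339 for Tnfrsf1a, Il1r1 and Il1rn, the smallest in the whole fit, and 0.402 for Cd40.

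Of 15 adaptors and kinases, 0 were higher and 1 lower at that p. Irak2, a kinase of the IL-1 and Toll-like receptor pathway, had -0.32 ± 0.11, and Traf6, a ubiquitin ligase of that pathway, -0.18 ± 0.08. Myd88, its adaptor, had 0.25 ± 0.10. The NF-kB subunits gave 3 tested genes, of which Rela, the p65 subunit, had 0.29 ± 0.09 and was higher at that p. Nfkb1, the p105 precursor, had -0.15 ± 0.08.

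Of 11 inhibitors and feedback genes, 0 were higher and 3 lower. Tax1bp1, an adaptor of A20, had -0.39 ± 0.12 and was below 0 on all arrays, and Bcl3, a nuclear IkB protein, had -0.26 ± 0.10. Otud7b, a deubiquitinase, had 0.24 ± 0.11. All 7 tested genes of cytokine maturation and the inflammasome had a mean ratio below 0, between -0.41 and -0.05, and 1 was lower at that p. Over all tested genes, 52.9% had a mean ratio above 0. Casp4, an inflammatory caspase, had -0.33 ± 0.11 and was the only gene of this list below 0 on all arrays. Casp1, which cuts the precursors of IL-1 beta and IL-18, had -0.41 ± 0.19 and was above 0 on array 1.

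Of 15 prostaglandin and nitric oxide genes, 1 was higher and 5 lower at that p. Ptges2, a prostaglandin E synthase, had 0.38 ± 0.10 and was above 0 on all arrays, and the receptor Ptger3 had 0.22 ± 0.10. Ptgis, the prostacyclin synthase, had -0.29 ± 0.09 and was below 0 on all arrays. Gch1, which starts the synthesis of the cofactor that nitric oxide synthases need, had -0.33 ± 0.10.

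The other NF-kB targets were the largest list, with 24 tested genes from -1.03 to 0.87 and a median of -0.22. At that p, 3 were higher and 8 lower. Birc3, an inhibitor of apoptosis, had -0.10, -0.79, -1.56 and -1.32 on arrays 1 to 4, fitted at -0.94 ± 0.14. Ccl20, a chemokine, was below 0 on 3 of 4 arrays and fitted at -0.60 ± 0.11. Higher were Selp, the P-selectin of endothelium and platelets, at 0.48 ± 0.12, and Cxcl2, a neutrophil chemokine, at 0.87 ± 0.24, neither with the same sign on all arrays. Mean ratios of this list were 0.21, -0.16, -0.40 and -0.41 on arrays 1 to 4. The T and NK cell list, which holds none of these genes, had 0.06, -0.30, -1.24 and -0.58. Its part in the list's values was not tested.

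**Figure D4:**
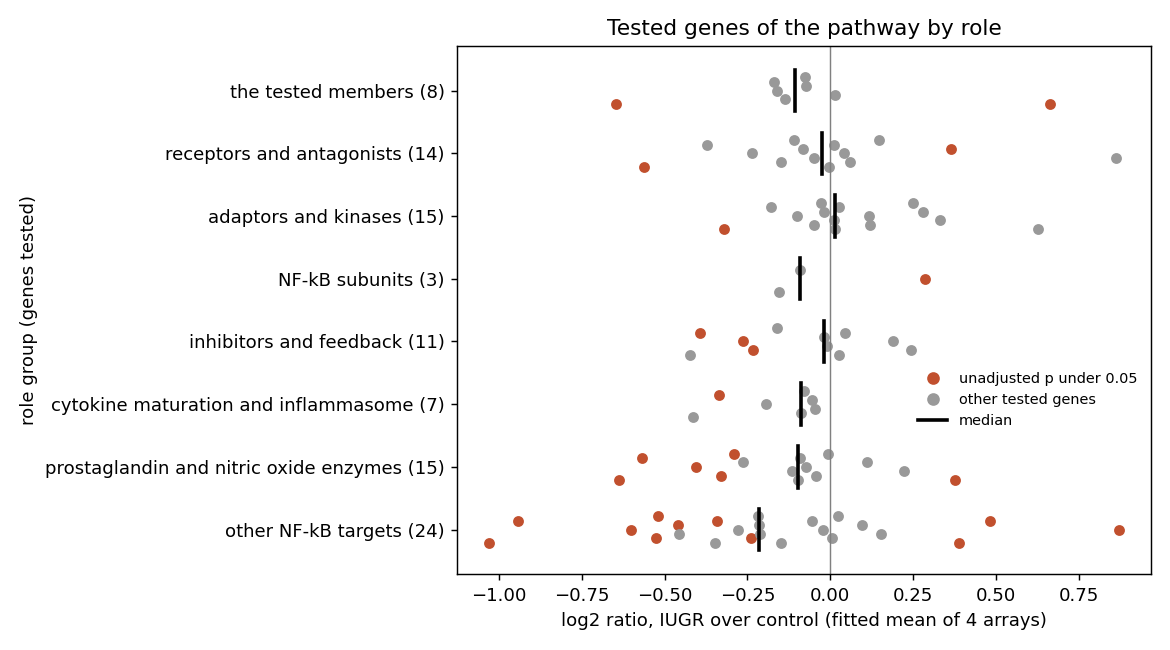
Fitted log2 ratios of IUGR over control (horizontal axis) of the tested members and of the tested genes of 7 role lists (vertical axis, number of genes in brackets), with red points at an unadjusted limma p under 0.05 and a black bar at each median. No gene was called after adjustment; the other NF-kB targets have the lowest median, -0.22, and adaptors and kinases one close to 0, at 0.02.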

How the data were processed

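Islet RNA of 4 IUGR and 4 control samples was compared on 4 two-colour Agilent arrays. Per the file headers, Agilent Feature Extraction 10.10.1.1 (protocol GE2_1010_Sep10) made the deposited scanner files, whose signals and local backgrounds are in units of intensity. In the deposited value table, a log2 ratio is given for each of 43030 spots per array, with no direction or normalization given in the sources used here; its array medians were 0.008, -0.026, -0.014 and -0.029. Set against the scanner values, it matched Cy5 over Cy3 after loess without background correction (r from 0.986 to 0.998 across probes). The submitters' processing notes name limma without settings.

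Mean signals and median backgrounds were corrected with normexp (offset 50) and loess-normalized within arrays (limma 3.58.1, R 4.3.3, statmod 1.5.0), with control spots at weight 0, feature outliers left out and spots of a probe averaged. Probes were named by the RefSeq symbol of their accession (17998 probes), otherwise by the name in the file. The brightest probe stood for a gene; a gene was tested if measured on all arrays and well above background in at least 2 of 4 channels of either group. Levels per sample are channel values after Aquantile scaling. The fit held a dye term, with 2 residual and 2.75 prior degrees of freedom, and p-values were adjusted by Benjamini-Hochberg over all tested genes. The fitted SE is that of a mean and leaves out the dye difference, so it is not comparable with an SD of the arrays. P-values measure the spread of the array ratios within the dye orientations and not the difference between orientations. Without the dye term, unadjusted limma p was 0.00311 for Tnf and 0.00769 for Il18, with adjusted p of 0.345 for each. The number of arrays limits the precision.

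The members and lists were chosen with earlier results of these data known. So was the handling of outlying local backgrounds (222, 44, 145 and 52 spots on arrays 1 to 4), which were set to the median background of the array and channel. That step was not part of the written design, and it moves results: without it, 1481 genes in place of 2737 had an unadjusted p under 0.05. Naming by accession was also settled after a first fit. All members and their probes are named; of each pathway list, up to 2 tested genes per direction with the smallest p were named, or 1 where none had p under 0.05; and for Tnf and Il18 the 3 most alike genes.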

Additional observations from a re-analysis of the deposited data

Results flagged for a closer look

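The Nfkbia ratio of array 1, at 0.304, stood apart from the ratios of the other 3 arrays, -0.32, -0.30 and -0.32. Its gap to the nearest of them was 0.968 of the whole range, above Dixon's 95% critical value for 4 values. Chance flags about 1 in 20 such groups, and 10 member probes were looked at. Array 1 is also the array on which the IUGR channel was the brighter one, by 1.68 on the log2 scale. With channel brightness as a covariate in the fit, the Nfkbia ratio was 0.012. That covariate mainly sets array 1 apart from the others, which stood at -2.42 to -1.55. A value between array 1 and the rest thus follows from the fit, and the cause of the gap was not tested.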

How the results depend on the processing

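Tnf stayed above 0 and Il18 below 0 under all 14 alternatives and without each array in turn, at 0.57 to 0.90 and -0.80 to -0.48, and neither was called in any; their smallest adjusted p was 0.0729, without array 1. Calls were 0 in all but 2 alternatives: median centring in place of loess gave 15 genes and 15 probes, and channel brightness as a covariate gave 7 genes and 8 probes, all lower in IUGR. Leaving out each array in turn gave 0 calls each time. Genes at an unadjusted p under 0.05 numbered 1175 with median centring, 1426 with the brightness covariate, 1481 with outlying backgrounds as measured and 1475 with them left out, against 2737 as reported. Leaving out array 1, 2 or 3 made that count 6212, 935 or 463. Signs turned for Il1a (0.29), Il1b (-0.10), Il6 (0.61) and Nos2 (0.47) with median centring, and for Il6 (0.026) and Nfkbia (0.012) with the brightness covariate; the cause was not tested. Leaving out arrays, Il1b ran from -0.14 to 0.16 and Il6 from -0.15 to 0.0011. The members' median was -0.29 with Agilent's processed signals and 0.10 with median centring, and -0.15 to -0.03 without each array. Among genes at an unadjusted p under 0.05, 52.1% were higher in IUGR as reported, 42.5% with Agilent's processed signals and 30.7% without array 3. Same-numbered samples did not deviate together (r from -0.29 to 0.08). Samples of 1 array also share a hybridisation, so these r values cannot settle whether the numbers pair samples. Under the replicate block, which compared same-numbered samples, 0 genes and 0 probes were called. Unadjusted p was then 0.0818 for Tnf and 0.00484 for Il18 in limma. Dim signals limit Il1a, Il6, Nos2 and Ptgs2.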
